A study of Mus musculus with 8 samples.

Results

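Depot identity transcription factors were followed here as a set of 8 named genes, Zic1, Lhx8, Tbx15, En1, Shox2, Irx3, Irx5 and Tbx5, chosen by name as developmental regulators used as labels of fat depots. They are 8 of the 44422 genes listed, and all 8 were found. Each was measured by poly(A) RNA-seq in 8 libraries, 2 for each of 4 groups: brown adipose tissue (BAT) of H1.2AKO mice, BAT of WT mice, inguinal white adipose tissue (iWAT) of H1.2AKO mice and iWAT of WT mice. H1.2AKO mice carried the floxed H1.2 alleles together with a Cre driven by the adiponectin promoter, which recombines in adipocytes and leaves the linker histone gene intact in the other cells of the tissue. WT mice were littermates with the same floxed alleles and no Cre. All were 10-week-old C57BL/6 males kept at 22 °C, and RNA of several mice was combined into each library. The sources differ on how many mice went into a pool, so n below counts pooled libraries.

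Fat cells of separate depots descend from separate embryonic territories and keep some of the patterning genes of those territories switched on in the adult. Interscapular brown fat arises largely from the somitic mesoderm that also gives dorsal skeletal muscle and dermis, whereas subcutaneous inguinal fat has other mesodermal sources. RNAs of such patterning factors are therefore used as labels of where a fat cell came from, and they are carried by preadipocytes as well as by mature adipocytes. In bulk tissue, fewer cells of a type and less RNA per cell cannot be told apart.

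The libraries held 16118634 to 17480325 reads assigned to listed genes. Hist1h1c, the gene for H1.2, was at 0.177 and 1.97 FPKM in H1.2AKO BAT against 36.8 and 43.3 FPKM in WT BAT, and at 2.26 and 1.73 FPKM in H1.2AKO iWAT against 23.7 and 24.2 FPKM in WT iWAT, as the labels require. FPKM is a fragment count scaled by gene length and by a denominator for each library. The authors' denominators here were 0.873 to 0.955 of the listed reads in BAT and 1.23 to 1.33 of them in iWAT. Ucp1, the uncoupling protein of brown adipocytes, averaged 2730 ± 179 FPKM in H1.2AKO BAT, 2645 ± 220 FPKM in WT BAT, 2.87 ± 0.767 FPKM in H1.2AKO iWAT and 1.28 ± 1.03 FPKM in WT iWAT (SD, n = 2 each), so both tissues carried their labels. Other cell types were unevenly present. The mean log2 level of 12 skeletal muscle genes was 2.32 in H1.2AKO BAT replicate 1 and 2.67 in WT iWAT replicate 1, against 5.94 to 7.0 in the other 6 libraries. The 8 lymph node genes summed to 310 to 392 FPKM in iWAT and 2.67 to 5.44 FPKM in BAT, with Glycam1 at 0 in all BAT libraries, and the 5 epithelial genes summed to 15.3 to 28.8 FPKM in iWAT and 0.184 to 0.497 FPKM in BAT.

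The 8 genes lie on 5 chromosomes of the GRCm38 (mm10) assembly and code for zinc finger, T-box and homeobox proteins. Zic1 (ENSMUSG00000032368, chromosome 9, 91358058 to 91365810, minus strand) overlaps Zic4 on the opposite strand by 3398 bases, of which 60 are exonic in both genes. Shox2 (ENSMUSG00000027833, chromosome 3, 66971727 to 66981771, minus strand) begins inside the start of Rsrc1 on the opposite strand, with 153 shared exonic bases, or 4.62% of the exonic bases of Shox2. Irx3 (ENSMUSG00000031734, chromosome 8, 91798525 to 91801916, minus strand) shares 124 exonic bases with its antisense transcript Irx3os. The libraries were not described as strand-specific, so reads of these short overlaps cannot be told apart. Irx5 (ENSMUSG00000031737, chromosome 8, 92357796 to 92361456, plus strand) lies 555.9 kb from Irx3 in the same Iroquois cluster. Lhx8 (ENSMUSG00000096225, chromosome 3, 154306294 to 154330561, minus strand), Tbx15 (ENSMUSG00000027868, chromosome 3, 99240381 to 99354259, plus strand), En1 (ENSMUSG00000058665, chromosome 1, 120602418 to 120607992, plus strand) and Tbx5 (ENSMUSG00000018263, chromosome 5, 119834663 to 119885218, plus strand) share no exonic bases with another annotated gene.

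The stretches just upstream of Zic1 and Shox2 are shown because these genes had the widest BAT to iWAT differences of the 8, in opposite directions. They are RefSeq promoter sequences of GRCm38.p6 on the gene's own strand, with 208 bases at chr9:91365811-91366018 for Zic1 and 250 bases at chr3:66981772-66982021 for Shox2. The 42 bases nearest to the RefSeq start of Zic1 are left out because GENCODE annotates them as exon. Capitals mark matches on either strand to CCAAT, the box of many housekeeping and developmental promoters, and to TATAAA, the sequence of the TATA box.
Zic1 upstream: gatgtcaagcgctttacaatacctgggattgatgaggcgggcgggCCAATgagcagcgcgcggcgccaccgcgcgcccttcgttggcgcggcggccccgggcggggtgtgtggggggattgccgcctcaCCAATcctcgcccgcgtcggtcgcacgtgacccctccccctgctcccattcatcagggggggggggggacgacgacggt
Shox2 upstream: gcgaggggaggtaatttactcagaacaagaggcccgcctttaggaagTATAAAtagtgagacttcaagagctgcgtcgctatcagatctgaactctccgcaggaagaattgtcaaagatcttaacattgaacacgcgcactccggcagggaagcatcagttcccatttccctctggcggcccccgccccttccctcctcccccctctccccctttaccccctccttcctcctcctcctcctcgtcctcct
In the 250 bases before its RefSeq start, Zic1 has 27 CG dinucleotides, more than 91.4% of the 32851 mouse promoters in the same table, and 2 CCAAT matches, a motif present in 33.8% of those promoters. Shox2 has 11 CG dinucleotides, more than 64.4% of promoters, and 1 TATAAA match, which 12.4% of promoters hold. That match lies toward the end of the window farthest from the RefSeq start and is not named a TATA box here. These are descriptions of letters in a window and not of factor binding.

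**Figure D1:**
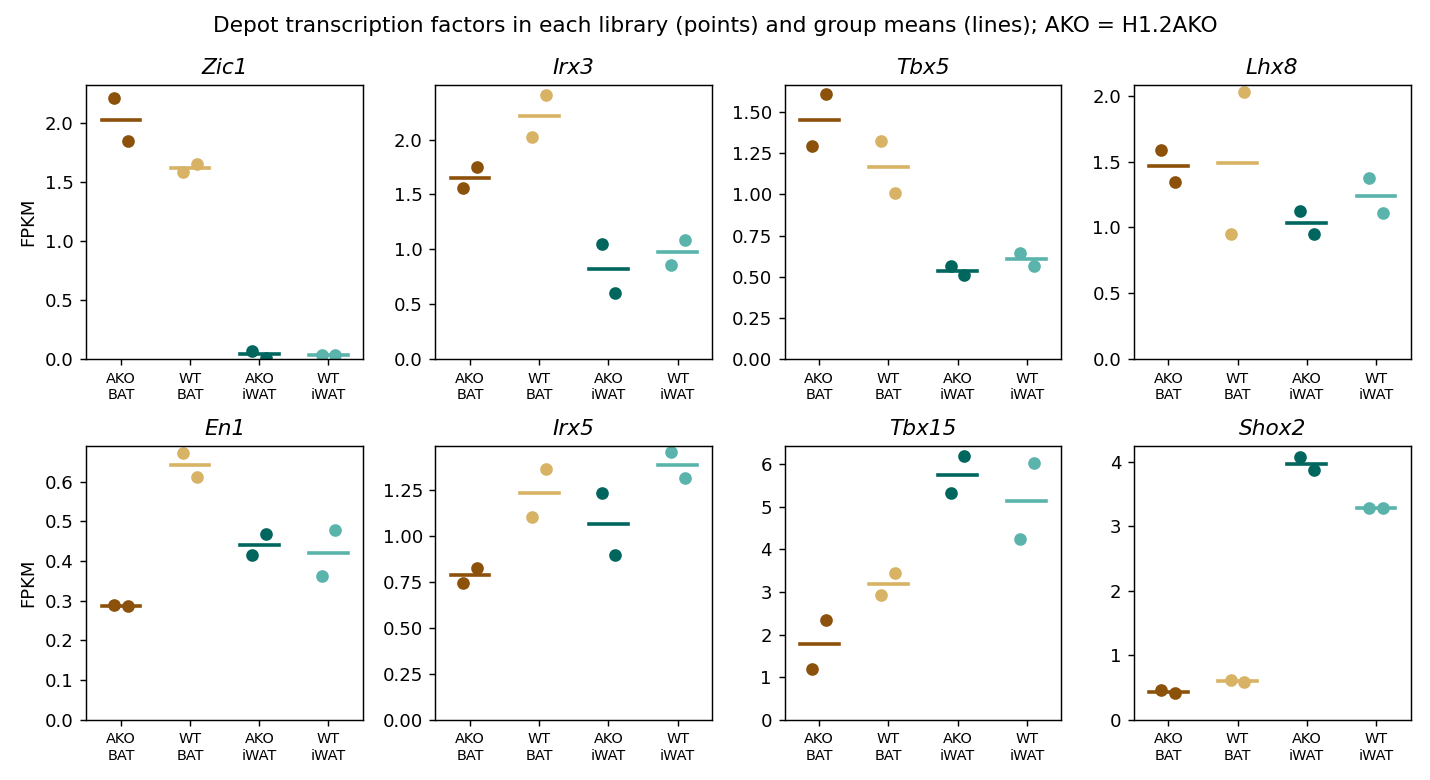
FPKM of each of the 8 factors (y axis, each panel from 0) in the 8 libraries, grouped on the x axis as H1.2AKO BAT, WT BAT, H1.2AKO iWAT and WT iWAT; points are libraries and lines are group means of 2. Zic1 stands at 1.58 to 2.21 FPKM in BAT and at most 0.0687 FPKM in iWAT, while Shox2 stands at 3.29 to 4.07 FPKM in iWAT and at most 0.614 FPKM in BAT.

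Comparing BAT with iWAT over both genotypes asks which of the factors marked one depot. By limma on log2(FPKM + 0.5), 5 of the 7 tested members differed at an adjusted p under 0.05: Zic1, Irx3 and Tbx5 were higher and Shox2 and Tbx15 were lower in BAT. Lhx8 and Irx5 did not pass, and En1 was under the level needed for testing, a mean of 0.5 FPKM in at least 1 tissue. The background is high, since 66.1% of the 14945 genes tested were called in this comparison, 30.8% higher and 35.4% lower, and 5 of 7 is near that share. The split depended on scaling, with 2044 genes higher and 9021 lower by total listed reads, 2911 and 7283 without mitochondrial genes, and 5543 and 4469 under quantile normalization, while the 5 members kept direction and call under each of these. The same 5 members had BAT and iWAT ranges that did not overlap over 4 libraries a tissue, as did 61.0% of genes tested. The median difference was 0.25 over the 7 members and -0.04 over all genes.

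Zic1, a zinc finger factor of the dorsal neural tube and somites that is widely used as a marker of interscapular brown fat, was close to a BAT-only RNA. It was at 2.21 and 1.85 FPKM in H1.2AKO BAT and 1.58 and 1.66 FPKM in WT BAT, against 0.0687 and 0.00861 FPKM in H1.2AKO iWAT and 0.0351 and 0.0327 FPKM in WT iWAT. Every BAT library was above every iWAT library, and the iWAT values rest on 9, 1, 4 and 4 reads. Summed over libraries, there were 617 reads in BAT against 18 in iWAT. With the authors' denominators, which raise BAT values relative to total listed reads, these gave a ratio of 48.9. Its exact 95% interval of 30.7 to 83.1 covers counting error only and not the choice of denominator. On the log2(FPKM + 0.5) scale, which compresses so low a level, the difference was 2.11 (SE 0.11, limma adjusted p = 1.1e-05), and 1.75% of tested genes had a difference as high or higher. It was 2.23 (SE 0.15) in H1.2AKO and 1.99 (SE 0.15) in WT, both called. The difference over both genotypes was 1.90 when libraries were scaled by total listed reads.

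Lhx8, a LIM homeobox factor of the basal forebrain, teeth and oocytes that has also been used as a brown fat label, overlapped between the tissues. It was at 1.58 and 1.35 FPKM in H1.2AKO BAT and 0.947 and 2.03 FPKM in WT BAT, against 1.13 and 0.947 FPKM in H1.2AKO iWAT and 1.37 and 1.11 FPKM in WT iWAT. The WT BAT pair spanned nearly the whole range of all 8 libraries. The fitted difference was 0.25 with a 95% interval of -0.20 to 0.70 (limma adjusted p = 0.284), which leaves room for a higher level in BAT. The sign turned to -0.11 when libraries were scaled by total listed reads, and under quantile normalization Lhx8 was called higher in BAT, at 0.60 (limma adjusted p = 0.0238), as it was without WT BAT replicate 1, at 0.45 (adjusted p = 0.0246 by limma).

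En1, a homeobox factor of the midbrain and hindbrain boundary and of the central dermomyotome, whose descendants include brown adipocytes, was low throughout. It was at 0.289 and 0.286 FPKM in H1.2AKO BAT and 0.671 and 0.611 FPKM in WT BAT, against 0.414 and 0.467 FPKM in H1.2AKO iWAT and 0.361 and 0.478 FPKM in WT iWAT. The 2 iWAT groups lay between the 2 BAT groups, so the tissue difference of mean log2 values ran one way in H1.2AKO (-0.26) and the other in WT (0.31). These values rest on 11 to 27 reads a library and were under the level for testing. En1 passed that level under quantile normalization, where it was called higher in BAT over both genotypes (0.35, limma adjusted p = 0.0291), and with scaling by total listed reads, where it was -0.20 and not called (adjusted p = 0.155).

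Shox2, a homeobox factor of the proximal limb and the sinoatrial node, was the clearest iWAT label of the set. It was at 0.458 and 0.412 FPKM in H1.2AKO BAT and 0.614 and 0.581 FPKM in WT BAT, against 4.07 and 3.88 FPKM in H1.2AKO iWAT and 3.29 and 3.29 FPKM in WT iWAT. All 4 iWAT libraries stood far above all 4 BAT libraries, and the mean was 7.03-fold higher in iWAT. The log2 difference was -2.02 (SE 0.08, limma adjusted p = 4.7e-06), with 5.01% of tested genes as low or lower. It was -2.26 (SE 0.11) in H1.2AKO and -1.79 (SE 0.11) in WT, both called. Scaled by total listed reads, the Shox2 difference over both genotypes was wider, at -2.36. Rsrc1, which overlaps its start, was also lower in BAT, by a smaller step of -0.65 (SE 0.08), and the 8 marker genes of fibroblasts and progenitors, all called lower in BAT, summed to 187 to 295 FPKM there and 870 to 1011 FPKM in iWAT; their part in the Shox2 difference was not tested.

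Tbx15, a T-box factor of the craniofacial skeleton, of fast glycolytic muscle fibres and of subcutaneous and brown fat, was lower in BAT in every library while still present there. It was at 1.19 and 2.35 FPKM in H1.2AKO BAT and 2.93 and 3.46 FPKM in WT BAT, against 5.32 and 6.19 FPKM in H1.2AKO iWAT and 4.24 and 6.04 FPKM in WT iWAT. The lowest library of each tissue, H1.2AKO BAT replicate 1 and WT iWAT replicate 1, was the one with the low skeletal muscle level. The difference over both genotypes was -1.05 (SE 0.19, limma adjusted p = 0.00277). In H1.2AKO it was -1.51 (SE 0.27, adjusted p = 0.0036), and in WT -0.60 (SE 0.27, adjusted p = 0.107), which did not pass. Without both low-muscle libraries, an alternative chosen after seeing the data, these became -1.13 and -0.83. That left H1.2AKO BAT and WT iWAT without a replicate, so only sizes are given. The difference between genotypes in the tissue step was -0.91 over all libraries (limma unadjusted p = 0.0514, adjusted p = 0.85) and -0.30 without both low-muscle libraries. Any part of muscle in the Tbx15 values was not tested.

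Irx3 and Irx5 are Iroquois homeobox factors of limb and heart patterning, neighbours of Fto, and in humans the targets of the obesity-associated FTO intron region. They parted here. Irx3 was at 1.56 and 1.75 FPKM in H1.2AKO BAT and 2.02 and 2.41 FPKM in WT BAT, against 1.05 and 0.601 FPKM in H1.2AKO iWAT and 0.860 and 1.09 FPKM in WT iWAT. BAT was above iWAT in every library, with a mean 2.15-fold higher and a log2 difference of 0.80 (SE 0.14, limma adjusted p = 0.00235). Scaled by total listed reads, the Irx3 difference was smaller, at 0.44 (limma adjusted p = 0.0407). Irx5 was at 0.745 and 0.823 FPKM in H1.2AKO BAT and 1.10 and 1.36 FPKM in WT BAT, against 1.23 and 0.898 FPKM in H1.2AKO iWAT and 1.45 and 1.32 FPKM in WT iWAT. The tissues overlapped, and the difference was -0.20 with a 95% interval of -0.48 to 0.08 (limma adjusted p = 0.166). Under quantile normalization the sign of Irx5 turned, to 0.16. With scaling without mitochondrial genes it was called lower in BAT, at -0.40 (limma adjusted p = 0.0273), as it was by total listed reads, at -0.54.

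Tbx5, the T-box factor of the forelimb and heart, was higher in BAT. It was at 1.29 and 1.61 FPKM in H1.2AKO BAT and 1.32 and 1.01 FPKM in WT BAT, against 0.562 and 0.510 FPKM in H1.2AKO iWAT and 0.646 and 0.566 FPKM in WT iWAT. No BAT library came below 1.01 FPKM and no iWAT library above 0.646 FPKM. The mean was 2.29-fold higher in BAT and the log2 difference 0.75 (SE 0.12, limma adjusted p = 0.0013). It was 0.91 (SE 0.16, adjusted p = 0.00366) in H1.2AKO and 0.59 (SE 0.16, adjusted p = 0.0226) in WT. Scaled by total listed reads, the difference over both genotypes was smaller, at 0.43 (limma adjusted p = 0.0105).

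Within single genotypes the picture was much the same, with fewer libraries behind each call. In H1.2AKO, 5 of 7 tested members differed between the tissues, against 53.8% of all genes tested. In WT, 4 of 7 did, against 53.4% of all genes, Tbx15 being called in H1.2AKO and not in WT. With scaling by total listed reads 6 members were called in H1.2AKO, where Irx3 lost its call and Irx5 and En1 gained one, and 3 in WT, where Irx3 and Tbx5 lost theirs and Tbx15 gained one. Leaving out WT iWAT replicate 1 lowered the WT count to 2, as Irx3 and Tbx5 then had adjusted p = 0.0543 and 0.0554 in limma with values of 0.77 and 0.64. The order of the 4 group means differed between members: H1.2AKO BAT was the highest group for Zic1 and Tbx5 and the lowest for Tbx15, En1, Shox2 and Irx5, WT BAT the highest for Irx3, En1 and Lhx8, H1.2AKO iWAT for Tbx15 and Shox2, and WT iWAT for Irx5. Neighbouring groups in that order overlapped in all 3 steps for Lhx8, in 2 for Irx5, in 1 each for Zic1, Tbx15, En1, Irx3 and Tbx5, and in 0 for Shox2.

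**Figure D2:**
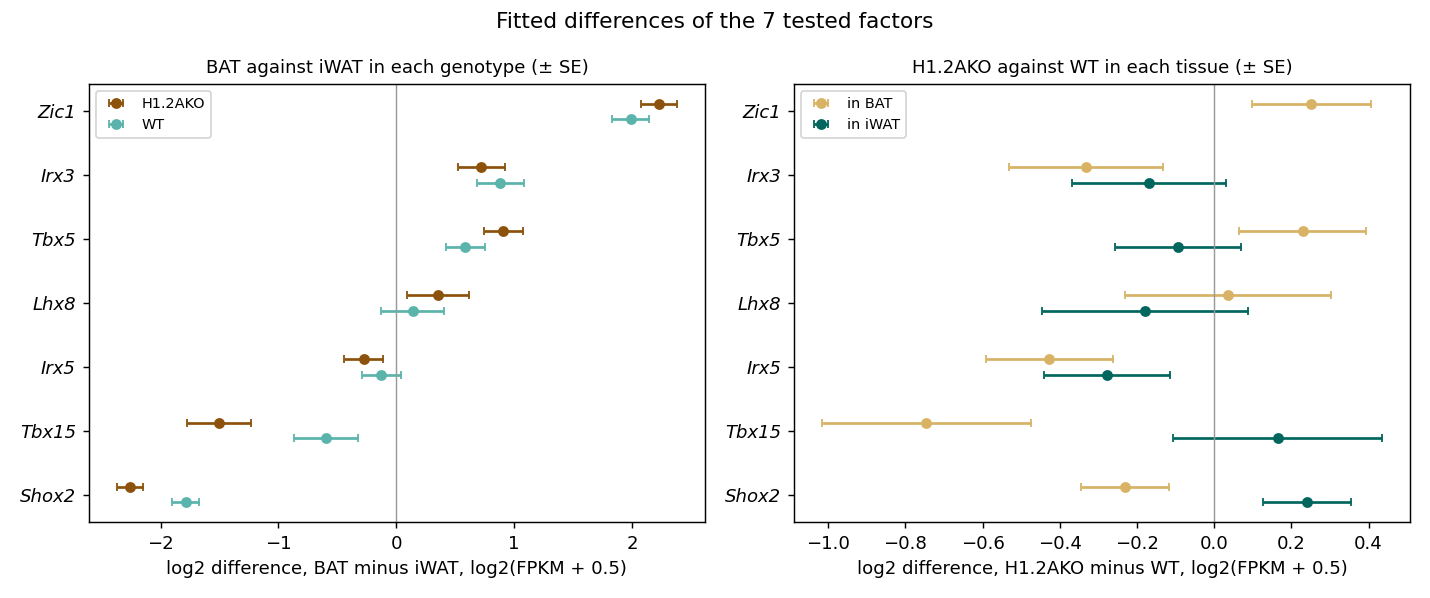
Fitted log2 differences ± SE of the 7 tested factors (rows) on the log2(FPKM + 0.5) scale. The left panel gives BAT minus iWAT in H1.2AKO and WT, with Zic1 at 2.23 and 1.99 and Shox2 at -2.26 and -1.79; the right panel gives H1.2AKO minus WT in BAT and iWAT, where Tbx15 in BAT is lowest at -0.75 and no value passed the adjusted threshold (Zic1 was not tested in iWAT).

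Comparing H1.2AKO with WT within a tissue asks whether the factors moved with adipocyte loss of H1.2. No member was called in either tissue. In BAT, 0 of the 7 tested members passed, as did 0.0% of 13190 genes, and 2 members had an unadjusted limma p under 0.05, as did 1654 genes. In iWAT, 0 of 6 passed, as did 0.0% of 14349 genes, with 0 members and 855 genes at an unadjusted p under 0.05. limma-voom on reads recovered from the FPKM values called 20 genes in BAT and 5 in iWAT, and no member. Hist1h1c itself did not reach the adjusted threshold: with differences of -4.97 in BAT and -3.30 in iWAT, it had limma adjusted p = 0.0717 and 0.366. Absence of calls therefore does not show that the factors were alike in the genotypes.

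In BAT, H1.2AKO and WT ranges did not overlap for 5 of the 7 tested members, 1 above and 4 below WT, against 41.3% of genes tested. Tbx15 averaged 1.77 ± 0.816 FPKM in H1.2AKO BAT and 3.19 ± 0.373 FPKM in WT BAT (SD, n = 2 each). Its log2 difference of -0.75 (95% interval -1.39 to -0.10, limma unadjusted p = 0.0303, adjusted p = 0.354) shrank to -0.37 without H1.2AKO BAT replicate 1, the library with the low muscle level, and to -0.31 with the muscle level as a covariate. Irx5 averaged 0.784 ± 0.0551 FPKM in H1.2AKO BAT and 1.23 ± 0.185 FPKM in WT BAT, a difference of -0.43 (95% interval -0.82 to -0.04, limma unadjusted p = 0.0367, adjusted p = 0.368) that was -0.38 without that library. Both H1.2AKO BAT libraries had lower muscle levels (2.32 and 5.94) than both WT BAT libraries (6.84 and 7.0). Muscle level and genotype therefore cannot be told apart in BAT, and any part of muscle in these differences was not tested. With the muscle covariate, 0 of the 7 members tested in BAT had an unadjusted limma p under 0.05, against 1308 of 13190 genes. The same count, 0, came from fitting only the BAT libraries, against 1303 of 13190 genes. A count of 0 of 7 is near each of these shares. Crnde, the noncoding gene 1.7 kb from Irx5, was at 0.822 and 0.373 FPKM in H1.2AKO BAT and 1.01 and 1.27 FPKM in WT BAT.

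The untested En1 had the lowest H1.2AKO to WT ratio of the 8 members in BAT, 0.448 of the means, from 22 reads in H1.2AKO and 51 in WT; the exact 95% interval of the read ratio, for counting error only, was 0.259 to 0.753. Both H1.2AKO BAT libraries gave almost the same En1 value, 0.289 and 0.286 FPKM, from 11 reads each, at muscle levels of 2.32 and 5.94. En1 was highest in WT BAT, where the muscle levels were 6.84 and 7.0. Within iWAT it was lowest in the low-muscle WT iWAT replicate 1, at 0.361 FPKM. Any part of muscle in the En1 values was not tested. Without the low-value filter the En1 difference was -0.53 (limma adjusted p = 0.334). The other 3 members not overlapping were Zic1, 2.03 ± 0.261 FPKM in H1.2AKO BAT against 1.62 ± 0.0514 FPKM in WT BAT, Irx3, 1.65 ± 0.137 against 2.22 ± 0.271 FPKM, and Shox2, 0.435 ± 0.0323 against 0.598 ± 0.0233 FPKM, with limma adjusted p between 0.466 and 0.547.

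In iWAT, H1.2AKO and WT ranges did not overlap for 3 of the 6 tested members, against 37.2% of genes tested. Shox2 was above WT, at 3.97 ± 0.135 FPKM in H1.2AKO iWAT and 3.29 ± 0.0005 FPKM in WT iWAT (SD, n = 2 each; difference 0.24, limma adjusted p = 0.871). Irx5 and Tbx5 were below WT, by differences of -0.28 and -0.09 (limma adjusted p = 0.925 and 0.996). Zic1 was not tested in iWAT, where 10 reads in H1.2AKO and 8 in WT bound its read ratio only to 0.425 to 3.49.

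The interaction term asks whether the BAT to iWAT step differed between the genotypes. No member passed it, 0 of 7 against 0.0% of 14945 genes, with limma; 1 member and 839 genes had an unadjusted p under 0.05, and limma-voom called 0 genes. That member was Shox2, whose BAT to iWAT step differed by -0.47 between H1.2AKO and WT (95% interval -0.86 to -0.08, limma unadjusted p = 0.0239, adjusted p = 0.84). Its H1.2AKO libraries were below WT in BAT and above WT in iWAT, in every library.

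Other members of the same gene families were compared from a list of 32, of which 11 were detected well enough to test. In BAT against iWAT, 2 were called higher, Tbx3 and Tbx2, and 6 lower, Tbx1, Eomes, Irx2, Irx1, Tbx21 and Mga. Of all genes tested, 30.8% were called higher and 35.4% lower. The median of the family genes was -0.35 against -0.04 for all genes. With scaling by total listed reads 1 was higher and 9 lower, Tbx2 losing its call at 0.31 (limma adjusted p = 0.114), and Mga turned to 0.01 under quantile normalization. Tbx1, a T-box factor of the pharyngeal arches that is used as a label of beige fat, was at 0.233 and 0.115 FPKM in H1.2AKO BAT and 0.305 and 0.397 FPKM in WT BAT, against 3.06 and 2.40 FPKM in H1.2AKO iWAT and 3.23 and 2.88 FPKM in WT iWAT, a difference of -2.16 (SE 0.12, limma adjusted p = 1.4e-05). Its step was of the size of that of Shox2. Eomes and Tbx21, T-box factors of lymphocytes, were lower in BAT by -1.64 and -0.80, and the lymph node genes moved the same way; their part was not tested.

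Irx1 and Irx2, which sit in a separate Iroquois cluster, ran opposite to Irx3. Irx1 was at 0.348 and 0.201 FPKM in H1.2AKO BAT and 0.171 and 0.676 FPKM in WT BAT, against 1.98 and 1.80 FPKM in H1.2AKO iWAT and 1.87 and 2.96 FPKM in WT iWAT. Its difference was -1.66 (SE 0.22, limma adjusted p = 0.000568), and that of Irx2 was -1.28 (SE 0.14, adjusted p = 0.000276). Irx6, in the cluster of Irx3 and Irx5, was listed at 0 in all but 1 library. Irx3 was therefore the one Iroquois gene of the 4 tested that was higher in BAT.

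**Figure D3:**
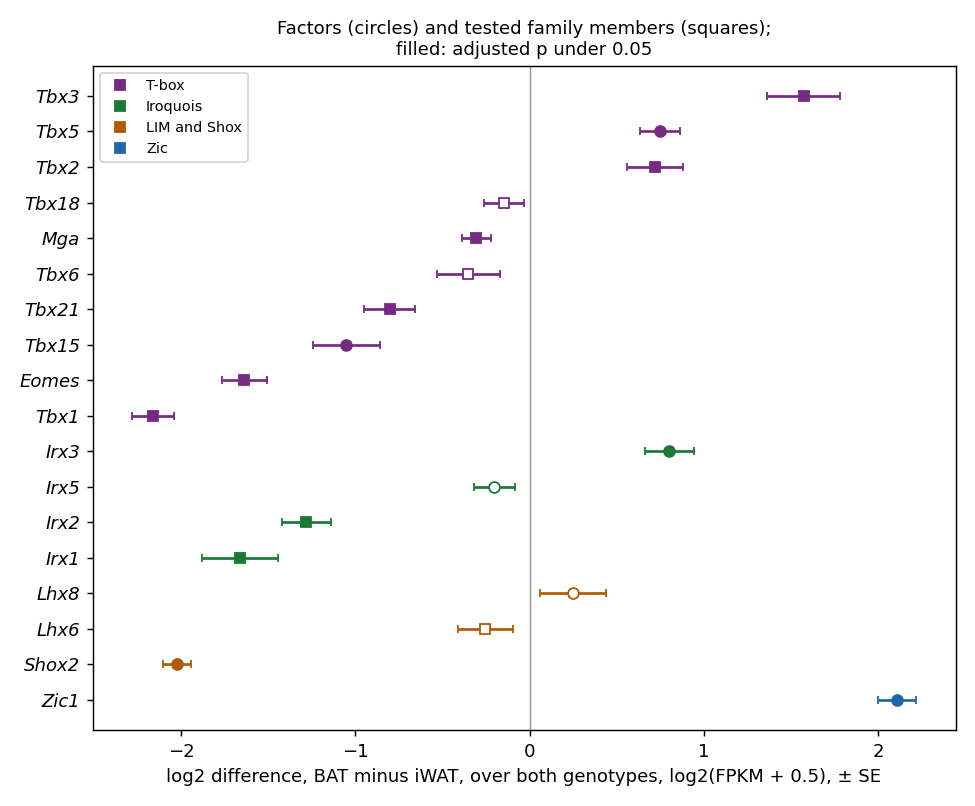
Log2 differences ± SE, BAT minus iWAT over both genotypes on the log2(FPKM + 0.5) scale, of the tested factors (circles) and the tested genes of their families (squares), coloured by family and filled where the adjusted p is under 0.05. Tbx3 at 1.57 and Tbx1 at -2.16 bound the T-box genes, and Irx3 at 0.80 stands opposite to Irx2 at -1.28 and Irx1 at -1.66.

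Genes next to the factors on the chromosome were taken from a list of 16, of which 11 were tested. In BAT, 4 were called higher and 2 lower, against 66.1% of all genes called either way. With scaling by total listed reads 1 was higher and 5 lower. The calls included Rbm19, higher by 0.37, and Plscr4 and Rsrc1, lower by -0.54 and -0.65. Tbx3, a T-box repressor of limb and mammary development 149.9 kb from Tbx5, was at 7.54 and 3.62 FPKM in H1.2AKO BAT and 5.56 and 5.01 FPKM in WT BAT, against 1.55 and 1.28 FPKM in H1.2AKO iWAT and 1.33 and 1.62 FPKM in WT iWAT. It was higher in BAT by 1.57 (SE 0.21, limma adjusted p = 0.000618), the same direction as Tbx5 and a wider step. Zic4, the opposite-strand neighbour of Zic1, was under the level for testing, with 45 and 45 reads in H1.2AKO BAT and 27 and 47 in WT BAT, against 0 and 4 in H1.2AKO iWAT and 0 and 1 in WT iWAT, so both genes of that pair were largely BAT RNAs. Fto, beside Irx3, was at 3.19 to 3.95 FPKM in BAT and 3.00 to 3.73 FPKM in iWAT, and its difference of 0.04 was not called (limma adjusted p = 0.738). The call of Fto depended on scaling, being lower in BAT by total listed reads (-0.40, adjusted p = 0.00324) and higher under quantile normalization (0.25, adjusted p = 0.0492) by limma. Crnde was higher in BAT by 0.61 (limma adjusted p = 0.0194), with libraries that overlapped between the tissues and a call that was lost with scaling by total listed reads (0.36, adjusted p = 0.0996). Wars2, which lies 1.2 kb from Tbx15, was higher by 0.30 (adjusted p = 0.0446), opposite to Tbx15, although with scaling by total listed reads Wars2 turned to -0.05.

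Genes of the wider programmes gave the setting for the factors, beside 30.8% of all genes called higher and 35.4% lower in BAT. Of 20 tested regulators of the brown programme, 15 were higher in BAT and 0 lower, with a median of 0.86; with scaling by total listed reads 11 were higher and 3 lower. Ppara, a nuclear receptor of fatty acid oxidation genes, was at 17.6 and 17.0 FPKM in H1.2AKO BAT and 32.6 and 27.7 FPKM in WT BAT, against 0.907 to 1.82 FPKM in iWAT, a difference of 3.69 (SE 0.10, limma adjusted p = 1.6e-06). The coactivator Ppargc1b and the estrogen-related receptors Esrra and Esrrg differed by 2.81, 1.96 and 2.43. Zic1, at a far lower level, was near Esrra only on this scale, which compresses low levels. The BAT to iWAT ratio of mean FPKM was 50.3 for Zic1 and 3.93 for Esrra. Of 18 tested white and beige depot labels, 3 were higher and 12 lower in BAT, with a median of -0.98. The members with the smallest p were Slc27a2, a fatty acid transporter listed as a beige label and higher in BAT by 6.52, and Epsti1, Tbx1 and Prrx1, lower by differences of -4.00, -2.16 and -1.55. Of 16 somite and myogenic factors, 7 were tested, with Meox1 higher by 0.23, a sign that turned to -0.19 with scaling by total listed reads, and Mef2c and Eya2 lower, by -1.30 and -0.71.

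The genes whose log2 levels ran most like each factor over the 8 libraries were named as a description, since the libraries share 2 tissues and any depot-bound gene tends to run with others. Zic1 ran with Mul1, Metap1d and Apoo (Pearson r 0.998 to 0.999), genes of mitochondrial proteins. Shox2 ran with Ccna2, Mki67 and Smchd1 (r 0.998 to 0.999), of which Ccna2 and Mki67 are cell cycle genes. Irx3 ran with Gm6969 and Sema3f (r 0.991 and 0.976), and Tbx5 with Gpihbp1, Poln and Spr (r 0.991 to 0.993), Gpihbp1 being the capillary carrier of lipoprotein lipase. For the members not called between the tissues, Lhx8 ran with Gm11520, Itga10 and Gm17168 (r 0.908 to 0.959), Irx5 with Gm17023, Gm15756 and Cml1 (r 0.938 to 0.951) and En1 with Arid5b, Dupd1 and Zfp446 (r 0.933 to 0.961).

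Tbx15 ran most closely with Mef2c (r 0.994), a MADS factor of muscle, heart and endothelium, and then with Prr33 and Layn (r 0.987 and 0.984). Mef2c was at 1.05 and 2.60 FPKM in H1.2AKO BAT and 3.5 and 3.9 FPKM in WT BAT, against 7.07 and 7.33 FPKM in H1.2AKO iWAT and 5.84 and 7.75 FPKM in WT iWAT. Like Tbx15, it was lowest in each tissue in the library with the low muscle level. Shox2 did not share this: it was at 0.458 FPKM in the low-muscle H1.2AKO BAT library against 0.412 FPKM in the other, and at 3.29 FPKM in both WT iWAT libraries. Between the tissues, 2 of the 12 skeletal muscle genes were called higher and 0 lower in BAT, whereas Tbx15 and Mef2c were called lower. Any part of muscle or of other cell types in the Tbx15 and Mef2c values was not tested.

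**Figure D4:**
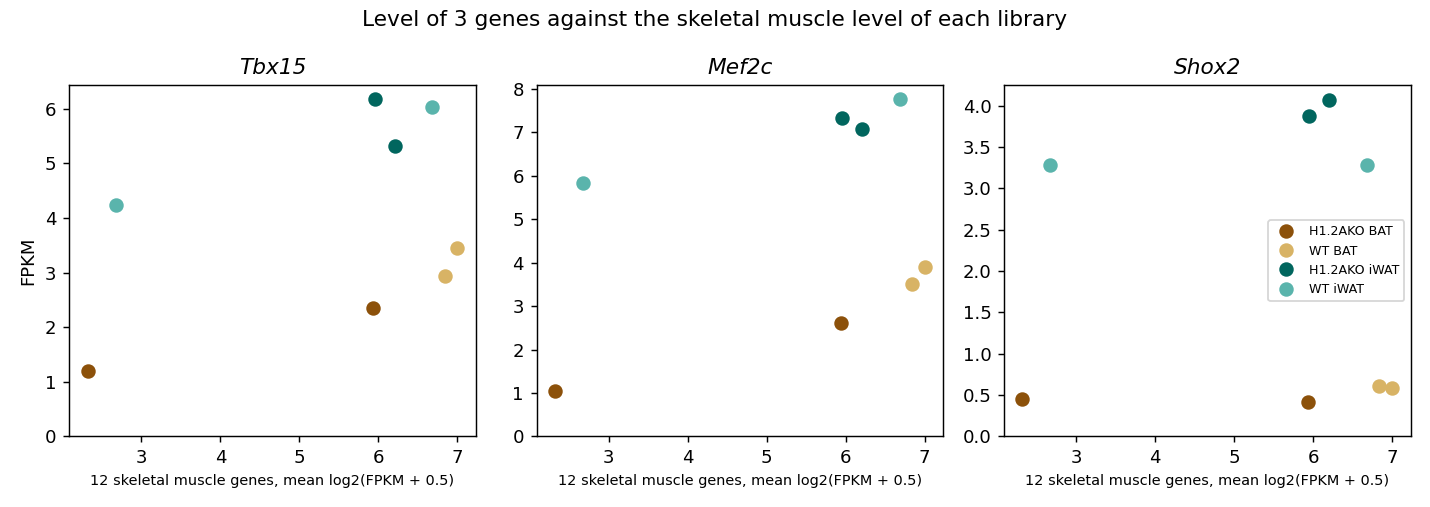
FPKM of Tbx15, Mef2c and Shox2 (y axes from 0) against the mean log2(FPKM + 0.5) of 12 skeletal muscle genes (x axis) in the 8 libraries, coloured by group. Tbx15 and Mef2c are lowest within each tissue at the libraries with muscle levels of 2.32 and 2.67, where Tbx15 is 1.19 FPKM in BAT and 4.24 FPKM in iWAT, and Shox2 is not.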

How the data were processed

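Poly(A) RNA of 8 pooled libraries was sequenced. HISAT2 2.0.5 and mm10 (GRCm38.p6) stand in the submitters' processing notes; which program counted and scaled the reads is not given in the sources used here. One FPKM value per gene and library stands in the deposited table, as the authors computed it, beside gene lengths. FPKM multiplied by gene length stepped in units of 1 read within a library, which gave each library's denominator and, within a tolerance of 0.01, whole reads for all values. The authors' denominators were 0.873 to 0.955 of the listed reads in BAT and 1.23 to 1.33 of them in iWAT, so BAT values stand higher than under total reads.

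limma 3.58.1 (R 4.3.3, trended) was fitted to log2(FPKM + 0.5) with one mean per group over all 8 libraries, which leaves 4 residual degrees of freedom. Testing within a tissue needed a mean of at least 0.5 FPKM there, and testing between tissues needed this in either. Benjamini-Hochberg adjustment was over all genes of a comparison, called at 0.05. Fold changes on this scale understate changes of low genes. Differences of untested members are differences of mean log2 values. Members and lists were chosen with earlier results of these data known; 175 of 176 symbols were found. Named genes were, per list, up to 4 with the smallest p between tissues, all chromosomal neighbours of the members, and the 3 most correlated per member, of which 1 is not reported here; Fto, Wars2, Zic4, Irx6, Crnde and the called family genes were named as neighbours or to complete a count. Nothing says that libraries of a group came from independent experiments, so p-values measure only the spread between pools. Promoters came from RefSeq (5 of 8 members matched) and exons from GENCODE vM21. The fit was tested on simulated data. Alternatives were other pseudocounts, low-value filters, normalizations and moderation, a replicate block, limma-voom on recovered reads and leaving out each library; scaling by total listed reads, the muscle covariate and leaving out both low-muscle libraries were added after seeing the data.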

Additional observations from a re-analysis of the deposited data

How the results depend on the processing

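Over both genotypes the count of members called stayed within 5 to 7 under every alternative run, with Zic1, Irx3, Tbx5, Shox2 and Tbx15 each keeping direction and call. It was 6 with scaling by total listed reads and 6 with scaling without mitochondrial genes, Irx5 being the gain in each. It was 7 with quantile normalization, Lhx8 and En1 being the gains. Scaling without mitochondrial genes gave 4 in H1.2AKO and 4 in WT, each with 2 higher and 2 lower in BAT. Leaving out a library gave 5 to 6 over both genotypes, 4 to 5 in H1.2AKO and 2 to 5 in WT, the 2 without WT iWAT replicate 1. Genotype and interaction counts for members were 0 throughout. Replicate numbers were shared between groups without stated pairing; with either replicate block (number, or genotype and number) the counts were 5, 5 and 5 of 7 for both genotypes, H1.2AKO and WT, Tbx15 in WT being the gain. Scaling by total listed reads (chosen after seeing the data) moved the median of all genes between tissues to -0.47, scaling without mitochondrial genes to -0.29 and quantile normalization to 0.10, against -0.04.

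Among the 8 members, the reversed values all belonged to differences that were not called. Lhx8 between tissues was -0.11 over both genotypes, -0.028 in H1.2AKO and -0.19 in WT with scaling by total listed reads, -0.031 in WT without mitochondrial genes, and -0.26 to 0.54 in WT on leaving out libraries. Lhx8 in BAT between genotypes was -0.012 without mitochondrial genes, -0.026 by total listed reads, -0.093 with the muscle covariate, -0.052 without both low-muscle libraries, and -0.37 to 0.44 on leaving out libraries. Irx5 between tissues under quantile normalization was 0.16, 0.13 in H1.2AKO and 0.20 in WT. Tbx15 in iWAT between genotypes was -0.054 with the muscle covariate, -0.068 without both low-muscle libraries, and -0.068 to 0.40 on leaving out libraries. Irx3 there was -0.42 to 0.076 on leaving out libraries. The causes were not tested. Of the other single-member values, 724 kept side and direction or, where untested in the main fit, stayed within the spread between replicates. Among differences tested in the main fit, 14 gained a call and 18 lost one. The 7 that moved were untested in the main fit and went beyond that spread. They include En1 between tissues over both genotypes, which went from 0.03 to -0.20 by total listed reads and to 0.35 under quantile normalization. With 2 pools a group and as few as 1 read for a member, small differences were not detectable at this depth.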
